A study of Mus musculus with 8 samples.

Results

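Human genetic studies have tied a set of chromosomal loci to insulin resistance and to where body fat is stored, and CCDC92 is a gene at one of them. The 9 genes described here are mouse orthologs of genes at other such loci: Fam13a, Arl15, Pepd, Klf14, Rspo3, Grb14, Lyplal1, Tbx15 and Cmip. They were chosen by name, with earlier results of these data known, and all 9 were found among the 24821 genes of the deposited table. RNA was sequenced from epididymal white adipose tissue, the fat pad beside the epididymis, in 4 Ccdc92 knockout (KO) and 4 wild-type (WT) libraries. KO and WT samples came from male mice on a C57BL/6 background, and the WT mice were littermates of the same age. Both genotypes were kept for 14 weeks on a high-fat diet, with 60% of its calories as fat and 20% each as protein and carbohydrate, so the comparison is between genotypes on 1 diet. The labels state neither the age, nor the part of Ccdc92 that was deleted, nor whether each library was 1 animal, and p-values therefore measure only the spread between these libraries, which may be technical.

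These genes act at different points of fat cell biology. Fam13a has been linked to adipocyte differentiation and insulin signalling. Grb14 encodes an adaptor that binds the activated insulin receptor and inhibits its kinase. Klf14 is an imprinted, intronless gene for a zinc finger transcription factor that is expressed from the maternal allele and is tied in human fat to a network of metabolic genes. Rspo3 encodes a secreted protein that strengthens Wnt signals through LGR receptors by removing the ubiquitin ligases ZNRF3 and RNF43. Tbx15 encodes a T-box transcription factor known in mice as more abundant in subcutaneous than in gonadal fat. Arl15 is an Arf-like GTPase that binds CNNM magnesium transporters, Lyplal1 a serine hydrolase related to acyl-protein thioesterases, Pepd the prolidase that splits proline-ending dipeptides left by collagen breakdown, and Cmip an adaptor first described as an inducer of c-Maf.

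The promoters of Fam13a and Grb14 are shown because these genes had the largest fitted rise and the largest fitted fall among the 9. Each window runs 5′ to 3′ on the gene's strand, from 250 bases before to 50 after the RefSeq start (GRCm38.p6), and 6 of the 9 genes had such a window. The Fam13a window is chr6:59024453-59024752, minus strand, and the Grb14 window is chr2:65022717-65023016, minus strand. Capitals mark a match to the nuclear receptor half-site AGGTCA on either strand.
Fam13a: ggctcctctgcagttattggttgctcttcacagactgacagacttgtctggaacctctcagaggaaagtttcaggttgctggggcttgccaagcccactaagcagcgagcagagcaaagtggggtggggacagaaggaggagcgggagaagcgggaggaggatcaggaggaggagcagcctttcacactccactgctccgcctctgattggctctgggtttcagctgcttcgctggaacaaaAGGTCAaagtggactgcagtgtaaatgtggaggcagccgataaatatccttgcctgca
Grb14: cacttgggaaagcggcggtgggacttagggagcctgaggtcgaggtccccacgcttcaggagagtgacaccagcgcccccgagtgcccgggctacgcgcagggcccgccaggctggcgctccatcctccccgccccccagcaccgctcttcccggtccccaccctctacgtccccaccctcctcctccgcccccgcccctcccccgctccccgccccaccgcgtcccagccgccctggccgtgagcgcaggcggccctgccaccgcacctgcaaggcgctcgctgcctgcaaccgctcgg
The Fam13a window held 1 AGGTCA, starting 8 bases before the RefSeq start, and 16.3% of all 32851 windows held this motif on either strand. The Grb14 window held none, and neither window held CCACACCC (a Krüppel-like factor box, in 3.56% of windows), ATCAAAG (the TCF/LEF motif, 3.73%) or AGGTGTGA (the T-box motif, 1.28%). GC content was 55.0% in the Fam13a window and 75.3% in the Grb14 window, against a median of 52.7% over all windows. These matches describe letters only, since no binding was measured.

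Reads assigned to genes numbered 23681088 to 33817478 per KO library and 27760429 to 29887921 per WT library. The targeted gene Ccdc92 had 4 to 9 reads in KO libraries, against 59 to 114 in WT libraries. Cell type markers differed between the groups, in sums of normalized counts over each list. Markers counted as higher or lower passed at a limma adjusted p under 0.05. Of all genes tested 41.7% did so, 20.2% higher and 21.5% lower in KO. The 20 adipocyte markers summed to 1863692.4 to 2242155.5 in KO and 508910.8 to 946483.4 in WT, with 17 higher in KO and none at 0. Macrophage markers (15 genes) summed to 52383.5 to 82060.2 in KO and 194983 to 478524.5 in WT, with 14 lower in KO, and endothelial markers (10 genes) to 42150.3 to 45605.4 in KO and 17350.2 to 35769.4 in WT, with 7 higher in KO. Epididymal markers (13 genes) summed to 10.9 to 1343.6 in KO and 53107.3 to 120065.3 in WT, and 6 of the 8 tested were lower in KO; Defb43 was at 0 in all KO libraries and Lcn9 at 0 in all WT libraries. Fibroblast and progenitor markers (15 genes) overlapped, at 370701.7 to 483593.8 in KO and 355738.2 to 412585.7 in WT. Their members went both ways, with 2 higher and 4 lower in KO, 40.0% of the 15, near the 41.7% of all genes. Gsn, the largest share of the sum, was higher by 1.08 on the log2 scale (limma adjusted p = 0.0047). The collagen genes Col1a1 (-1.48, limma adjusted p = 0.00552) and Col3a1 (-1.47, 0.0151) were lower. Overlapping sums were also found for the mesothelial markers (10 genes), at 2990.1 to 17641.9 in KO and 5138.8 to 11758.3 in WT, and the mural cell markers (8 genes), at 23336 to 35132.1 in KO and 16437.5 to 59113.7 in WT. WT replicate 3 stood apart in 6 liver markers, which summed to 51399 there, to 560.3 to 1499.7 in KO and to 102.7 to 219.3 in the other WT libraries. The part of these tissue differences in any result below was not tested, and in bulk tissue fewer cells of a type and less RNA per cell cannot be told apart. Values without WT replicate 3 are given beside most of the main results.

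Of the 9 genes, 8 had enough reads to be tested, and 4 of them passed at a limma adjusted p under 0.05. Fam13a was higher in KO fat, while Grb14, Pepd and Cmip were lower. Among all 17798 genes tested, 41.7% passed, 20.2% higher and 21.5% lower, so 4 of 8 is near the share of any genes. The median log2 fold change was -0.20 over the 8 and -0.01 over all genes tested. The values of KO and WT did not overlap for Fam13a and Cmip, 2 of the 8, against 42.1% of all genes tested. For these genes the exact two-sided permutation test over libraries gave p = 0.0286, the smallest that 4 against 4 can give. On the recovered reads, edgeR called 4 of the 8, against 41.9% of all genes, and DESeq2 called 5, against 47.2%. Without WT replicate 3, 2 of the 8 passed, Fam13a higher and Cmip lower, and the share over all genes tested was 31.7%, with 5641 calls in place of 7423.

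**Figure D1:**
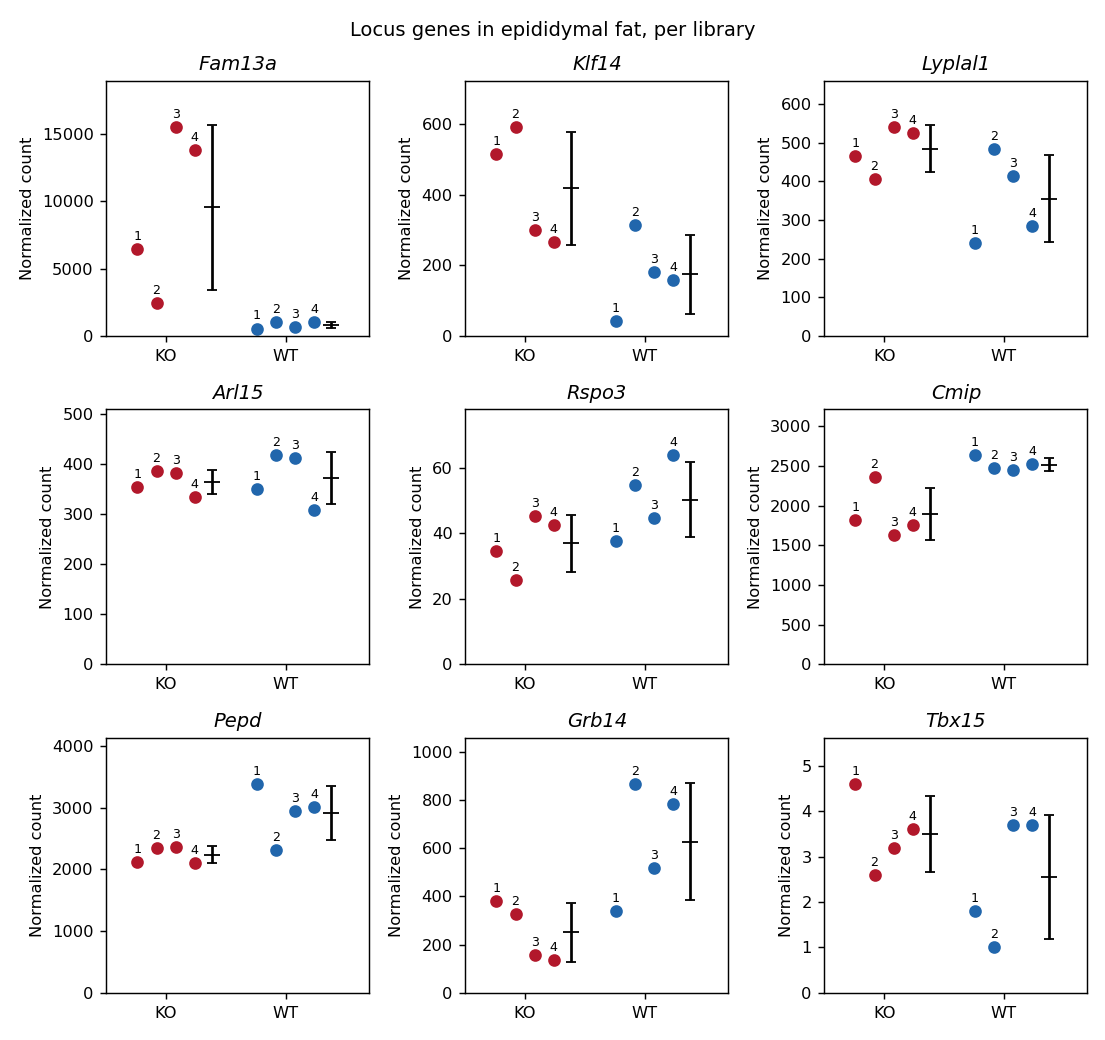
Normalized count of each of the 9 genes (vertical axes, linear from 0, own scale per gene) in the 4 KO (red) and 4 WT (blue) libraries, with replicate numbers beside the points and mean ± SD in black. Every Fam13a value in KO, 2449.1 or more, lies above every WT value, and for Grb14 KO replicates 2, 3 and 4 lie below all WT libraries.

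Fam13a (ENSMUSG00000037709.13, chromosome 6, 58932090 to 59024549, minus strand, GRCm38) showed the largest change of the 9. Its normalized counts were 6432.8, 2449.1, 15537.6 and 13799.9 in KO replicates 1 to 4, against 555.9, 1035.7, 687.9 and 1021.5 in WT replicates 1 to 4. All 4 KO libraries were above all WT libraries, but the KO libraries differed among themselves by 6.34-fold, and the WT libraries by 1.86-fold. The spread among KO libraries, an SD of 1.23 on the log2(normalized count + 1) scale, was larger than that of 95.7% of genes tested. Averages were 9555 ± 6166 in KO and 825.3 ± 241 in WT (SD, n = 4 each). The log2 fold change of KO over WT was 3.26 (SE 0.55, 95% confidence interval 1.99 to 4.52, limma adjusted p = 0.00256), and 18 of 17798 genes had a larger rise. Fam13a passed with each library left out in turn, with log2 fold changes of 2.91 to 3.80, and without WT replicate 3 it was 3.18 (limma adjusted p = 0.00979).

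The table also holds 3 genes that overlap Fam13a on the plus strand, of which 1 had enough reads to be tested. BB365896, an antisense gene named here after its values were seen, had 85 reads over the KO libraries and 6 over the WT libraries, and differed by 3.29 on the log2 scale (SE 0.59, limma adjusted p = 0.00322). Of those not tested, Gm45061 had 22 reads in KO and 0 in WT, and the antisense gene Gm45060 had 9 in KO and 7 in WT, with overlapping groups. No label says whether counting used strand, so reads of Fam13a and of these genes cannot be told apart. Their reads are few beside the 34298 of Fam13a in KO and 3515 in WT.

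Grb14 (ENSMUSG00000026888.14, chromosome 2, 64912476 to 65024987, minus strand), the inhibitor of the insulin receptor, was 2.57-fold lower in KO on the fitted scale. It had normalized counts of 380.4, 329, 158 and 137 in KO replicates 1 to 4 and of 339.4, 866.5, 518 and 781.8 in WT replicates 1 to 4. KO replicates 2, 3 and 4 were below every WT library, while KO replicate 1 was above WT replicate 1, so the groups overlapped. Means were 251.1 ± 121.7 in KO and 626.4 ± 242.1 in WT (SD, n = 4 each), a fitted difference of -1.36 on the log2 scale (SE 0.41; limma adjusted p = 0.028, exact permutation p = 0.0571). This call is not firm. Leaving out KO replicate 3 ended it (limma adjusted p = 0.0752), as did leaving out KO replicate 4 (0.0683). The same held for WT replicates 2 (0.0671), 3 (0.0523) and 4 (0.0642), while the log2 fold change stayed between -1.62 and -1.12 with any 1 library left out.

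Klf14 (ENSMUSG00000073209.4, chromosome 6, 30956023 to 30959078, minus strand, 1 exon) was detected in all 8 libraries but did not pass. Its values were 514.8, 591.3, 299.9 and 265.6 normalized counts in KO replicates 1 to 4, against 42.2, 314.5, 181.9 and 157.3 in WT replicates 1 to 4. WT replicate 1, at 46 reads (95% exact Poisson interval 33.7 to 61.4, counting error only), was the lowest, and WT replicate 2 was above KO replicates 3 and 4. Means were 417.9 ± 159.8 in KO and 174 ± 111.7 in WT (SD, n = 4 each), and the log2 fold change was 1.49 (SE 0.57, 95% confidence interval 0.19 to 2.79, limma adjusted p = 0.0655). Klf14 passed in DESeq2 on recovered reads (adjusted p = 0.0328) but not in edgeR's quasi-likelihood test (0.0842). In limma it passed without WT replicate 2 (limma adjusted p = 0.028). Without WT replicate 3 its log2 fold change was 1.61, and it did not pass (limma adjusted p = 0.0915).

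Cmip and Pepd, the most abundant of the 9 genes per exon length in WT fat, were modestly lower in KO. Cmip (ENSMUSG00000034390.16, chromosome 8, 117257064 to 117459430, plus strand) had normalized counts of 1826, 2367.9, 1625.2 and 1759.7 in KO replicates 1 to 4 and of 2633.6, 2477.3, 2446.1 and 2520.6 in WT replicates 1 to 4. Every KO library was below every WT library, with KO replicate 2 closest to them, and the WT libraries were within 1.08-fold of each other. The log2 fold change of Cmip was -0.43 (SE 0.11, limma adjusted p = 0.0174), and -0.44 without WT replicate 3 (limma adjusted p = 0.0399). It kept its call with any 1 library left out, and missed it when KO replicate 3 and WT replicate 4 were both left out (limma adjusted p = 0.0778).

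Pepd (ENSMUSG00000063931.14, chromosome 7, 34912379 to 35044708, plus strand) had 2119, 2344, 2360.5 and 2110.2 normalized counts in KO replicates 1 to 4, against 3383.1, 2320.5, 2941.8 and 3003.7 in WT replicates 1 to 4. WT replicate 2 lay within the KO range and the other WT libraries above it. The log2 fold change of Pepd was -0.37 (SE 0.12, limma adjusted p = 0.0319, exact permutation p = 0.0857). Leaving out KO replicate 1 ended the call (limma adjusted p = 0.0789), as did leaving out KO replicate 4 (0.0727). So did WT replicates 1 (0.0704), 3 (0.0767) and 4 (0.0677), with log2 fold changes of -0.48 to -0.30 over all single libraries left out.

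Lyplal1, Arl15 and Rspo3 did not pass. Lyplal1 (ENSMUSG00000039246.8, chromosome 1, 186087731 to 186117310, minus strand) had 465.4, 406.8, 540.7 and 525.1 normalized counts in KO replicates 1 to 4 and 240.3, 483.7, 414 and 283.7 in WT replicates 1 to 4. WT replicates 2 and 3 overlapped the KO range, and WT replicates 1 and 4 were below it. Its log2 fold change was 0.49 (95% confidence interval -0.01 to 1.00, limma adjusted p = 0.106). Without WT replicate 2 this was 0.66, and Lyplal1 passed (limma adjusted p = 0.0318). Without WT replicate 3 it was 0.58, and Lyplal1 did not pass (limma adjusted p = 0.0997). Arl15 (ENSMUSG00000042348.10, chromosome 13, 113794505 to 114157461, plus strand) had 355.1, 385.4, 382.7 and 333.5 in KO replicates 1 to 4 and 350.4, 417.4, 412.2 and 309 in WT replicates 1 to 4. The KO range lay inside the WT range, and the log2 fold change of -0.02 had a 95% confidence interval of -0.29 to 0.25 (limma adjusted p = 0.889). Rspo3 (ENSMUSG00000019880.10, chromosome 10, 29452416 to 29535867, minus strand) was low, with 34.5, 25.6, 45.1 and 42.4 in KO replicates 1 to 4 and 37.6, 54.8, 44.6 and 63.7 in WT replicates 1 to 4. Its log2 fold change was -0.44 (95% confidence interval -1.02 to 0.15, limma adjusted p = 0.201), an interval that covers both signs, from 137 KO and 214 WT reads.

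Tbx15 (ENSMUSG00000027868.11, chromosome 3, 99240381 to 99354259, plus strand) was nearly absent from this depot and was not tested. It had 4, 3, 3 and 3 reads in KO replicates 1 to 4 and 2, 1, 4 and 4 reads in WT replicates 1 to 4. In normalized counts this was 3.51 ± 0.851 in KO and 2.56 ± 1.39 in WT (SD, n = 4 each), and a difference was not detectable at this depth. Tbx18, another T-box gene, had 113.8 ± 33.6 normalized counts in KO and 134.7 ± 25.5 in WT (SD, n = 4 each), named after its value was seen.

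**Figure D2:**
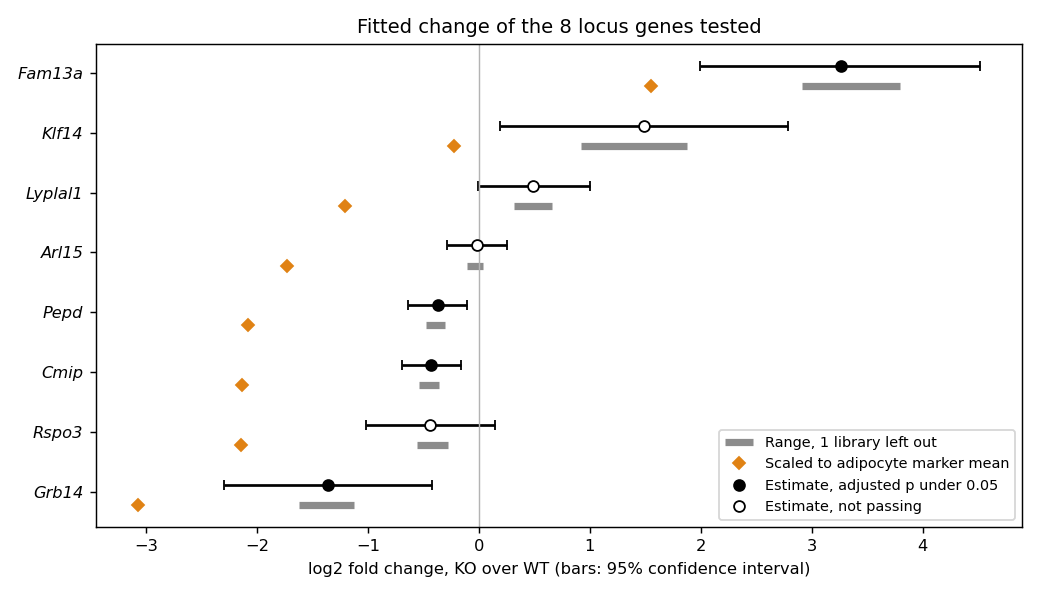
Fitted log2 fold change of KO over WT for the 8 genes tested (circles, filled where the limma adjusted p is under 0.05; bars, 95% confidence interval), with the range over fits that each left out 1 library (grey) and the value after subtracting each library's adipocyte marker mean (orange). Fam13a stays above 0 on both scales, while Klf14 and Lyplal1 change sign after the subtraction.

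Levels of the 9 genes were compared as normalized count per kilobase of exon. In KO fat the order was Fam13a (910), Pepd (725), Lyplal1 (307), Cmip (292), Klf14 (137), Arl15 (104), Grb14 (34.9), Rspo3 (11.9) and Tbx15 (0.936). In WT fat it was Pepd (945), Cmip (388), Lyplal1 (225), Arl15 (106), Grb14 (87.2), Fam13a (78.6), Klf14 (56.9), Rspo3 (16.2) and Tbx15 (0.684). Fam13a thus ranked first of the 9 in KO, and behind Pepd, Cmip, Lyplal1, Arl15 and Grb14 in WT. Library ranges of neighbours in the order overlapped in KO for Fam13a with Pepd, Lyplal1 with Cmip and Klf14 with Arl15, and in WT for Arl15 with Grb14, Grb14 with Fam13a, Fam13a with Klf14 and Klf14 with Rspo3.

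The libraries of a group did not vary alike for these genes. In KO, replicates 1 and 2 had the higher Grb14 and Klf14 values and the lower Fam13a values, and replicates 3 and 4 the reverse. Cmip followed the opposite order to Fam13a over the KO libraries, highest in replicate 2 and lowest in replicate 3. In WT, by contrast, Grb14 had the same order as Fam13a, lowest in replicate 1 and highest in replicate 2. The macrophage markers summed to 79590.6, 82060.2, 58843 and 52383.5 in KO replicates 1 to 4, and the adipocyte markers to 1888602.6, 1863692.4, 2205295.7 and 2242155.5, so both lists split the KO libraries in the same way. With 4 libraries per group these orders are a description, and their link was not tested.

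The level of each gene was also set beside the adipocyte markers of the same library. The mean log2 value of the 20 markers was 1.71 higher in KO than in WT, and 17 of the 20 rose, with a median log2 fold change of 1.53. Subtracting this mean lowers every gene's difference by the same amount, so that 16307 of 17798 genes pass as lower on this scale. Fam13a minus the marker mean was -2.88, -4.29, -1.80 and -2.0 in KO replicates 1 to 4 and -4.32, -4.29, -4.33 and -4.23 in WT replicates 1 to 4, in log2 units. The WT libraries lay within 0.1 of each other, KO replicate 2 lay among them, and the other KO libraries were higher. On this scale the Fam13a difference was 1.55 (limma adjusted p = 0.0125), and 2 of the 20 markers had larger unscaled fold changes than Fam13a. Grb14 minus the marker mean was -6.96, -7.19, -8.41 and -8.64 in KO replicates 1 to 4 and -5.03, -4.55, -4.74 and -4.62 in WT replicates 1 to 4. Here the groups did not overlap, and the difference was -3.07 (limma adjusted p = 9.3e-06). On this scale the groups did not overlap for Arl15, Pepd, Rspo3, Lyplal1 and Cmip either. Klf14 differed by -0.22 on this scale (limma adjusted p = 0.66), with overlapping groups.

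**Figure D3:**
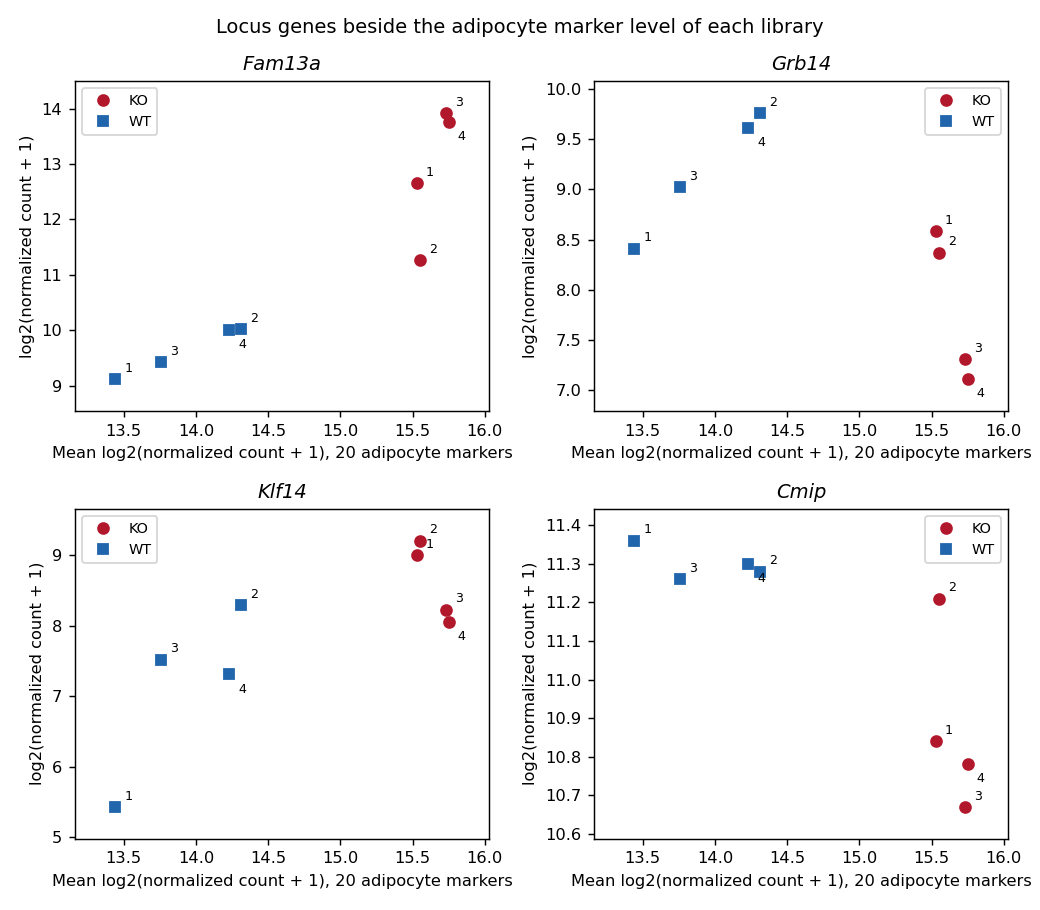
log2(normalized count + 1) of Fam13a, Grb14, Klf14 and Cmip (vertical axes, not starting at 0) against the mean log2(normalized count + 1) of 20 adipocyte markers (horizontal axis) in the 4 KO (red circles) and 4 WT (blue squares) libraries, numbered by replicate. Fam13a keeps a near constant distance to the marker mean in WT and KO replicate 2 (-4.33 to -4.23) and lies higher in the other KO libraries, while Grb14 lies lower in KO at a higher marker mean.

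Of the neighbours of called genes, some differed in the same direction as the called gene and others in the opposite one. The nearest protein-coding gene on each side gave 18 neighbours. Of these, 15 were tested and 5 (33.3%) passed, 3 higher and 2 lower in KO, against 41.7% of all genes. Without WT replicate 3, 5 of the 15 passed, again 3 higher and 2 lower, where 31.7% of all genes passed. Beside Fam13a, 11.7 kb away, Herc3, a HECT-domain ubiquitin ligase gene, fell to 683 ± 121.7 in KO, against 987.8 ± 39.2 in WT (SD, n = 4 each; log2 fold change -0.55, limma adjusted p = 0.00682). Beside Grb14, at 63.4 kb, Cobll1 averaged 2819 ± 298.2 in KO and 1384 ± 428 in WT (SD, n = 4 each), a rise of 1.08 on the log2 scale (limma adjusted p = 0.00543), and on the other side, 814.4 kb away, Fign, which encodes a microtubule-severing enzyme, rose by 1.02 (limma adjusted p = 0.0167). Grb14 itself was lower in KO, so it and both neighbours differed in opposite directions. Pepd and its neighbour Cebpg, a C/EBP family transcription factor gene 1.7 kb away, also went opposite ways, with Cebpg at a log2 fold change of 0.37 (limma adjusted p = 0.0104). Plcg2, a phospholipase C of immune cell receptors that lies 38.9 kb from Cmip, fell as Cmip did, to 486.3 ± 136.3 in KO against 1352 ± 315 in WT (SD, n = 4 each; log2 fold change -1.49, limma adjusted p = 0.00174). Wars2, which lies 1.2 kb from Tbx15 and is often named with it at the human locus, had 187.9 ± 28.1 in KO and 217.8 ± 10.8 in WT (SD, n = 4 each) and did not pass (limma adjusted p = 0.196).

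A wider list of 46 genes often named at human loci for waist-to-hip ratio or insulin resistance was counted in the same fit. The list was chosen with earlier results of these data known, so its share of calls is a description only. Of 41 tested, 23 (56.1%) passed, 14 higher and 9 lower in KO, against 41.7% of all genes, with a median log2 fold change of 0.05. The 4 with the smallest p were Map3k1, Vegfa, Hmga1 and Ly86. Vegfa, the vascular endothelial growth factor, averaged 9357 ± 2850 in KO and 1638 ± 286.3 in WT (SD, n = 4 each), a log2 fold change of 2.48 (limma adjusted p = 0.00035). Hmga1, a chromatin architectural protein, averaged 899 ± 178.9 in KO and 5107 ± 2006 in WT, at -2.45 (limma adjusted p = 0.00049). Map3k1, a kinase of the MAP kinase cascade, had a log2 fold change of -0.71 (limma adjusted p = 0.000304), and Ly86, a surface protein of immune cells, one of -1.46 (limma adjusted p = 0.000649). The list shares 3 genes with the adipocyte markers, 3 with the chromosomal neighbours and 2 with the partner lists. Without WT replicate 3 it had 12 higher and 7 lower of 41, where 31.7% of all genes passed.

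**Figure D4:**
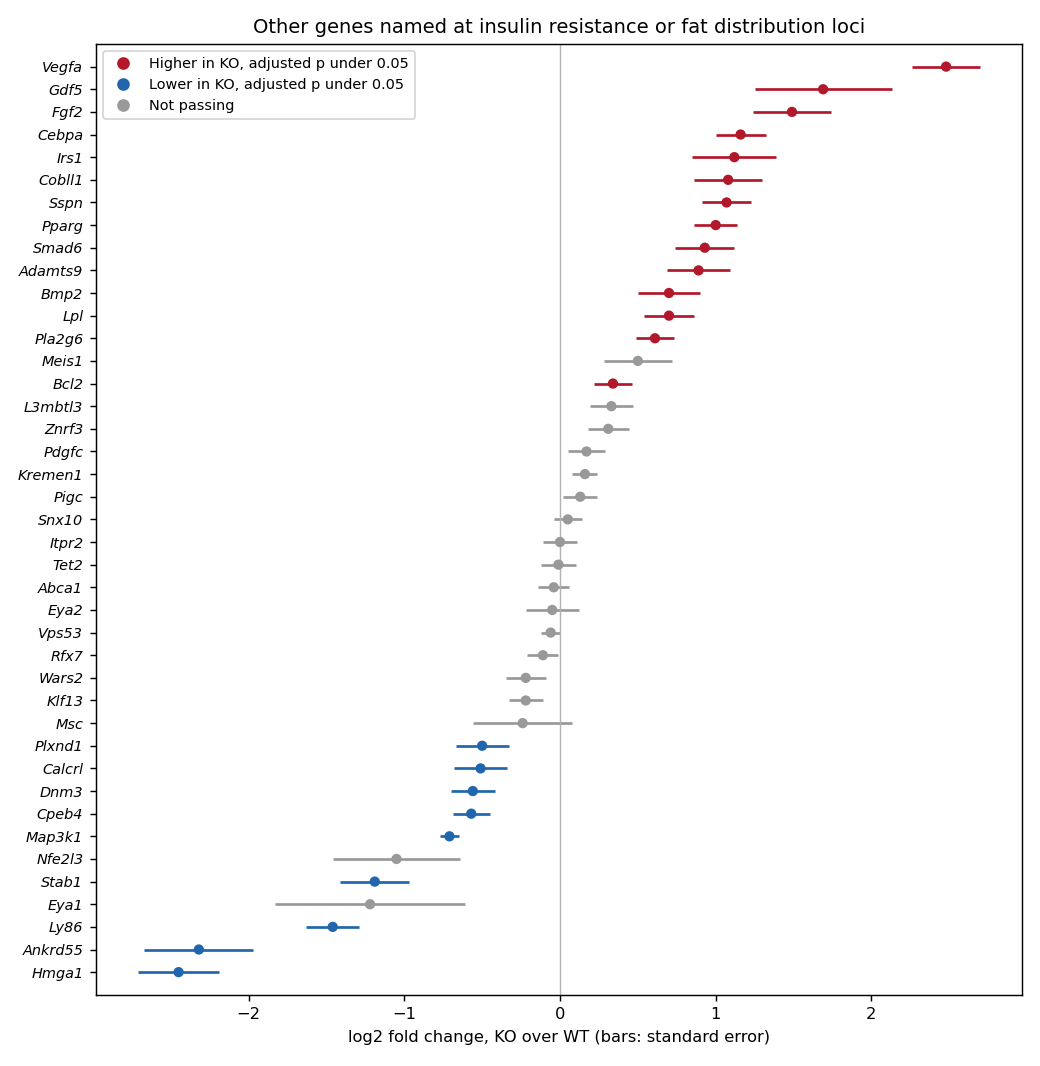
Fitted log2 fold change of KO over WT (horizontal axis; bars, standard error) for the 41 tested genes of the wider locus list, red where higher and blue where lower in KO at a limma adjusted p under 0.05 and grey otherwise. The 14 genes that passed as higher are led by Vegfa at 2.48 and the 9 that passed as lower by Hmga1 at -2.45.

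Families and binding partners of the 9 genes were counted in 9 lists of 108 genes in all. Of 90 tested, 40 (44.4%) passed, 19 higher and 21 lower, with a median of 0.00, close to all genes. Quantile normalization turned this split to 26 higher and 17 lower. It also turned the split over all genes, from 3592 higher and 3831 lower to 4593 and 3257. Among 9 genes of the Grb7 family and proteins bound by Grb14, 4 rose and 2 fell (66.7%, against 41.7% of all genes). Grb10, the related inhibitor of the insulin receptor, averaged 1936 ± 275.1 in KO and 1036 ± 152.7 in WT (SD, n = 4 each), a log2 fold change of 0.90 (limma adjusted p = 0.00154), opposite to Grb14. Grb7, named after its value was seen, was lower in KO as Grb14 was. It averaged 90.1 ± 79.5 in KO and 392.9 ± 203.1 in WT (SD, n = 4 each), with overlapping groups. Its log2 fold change was -2.51 (limma adjusted p = 0.0292). The insulin receptor Insr rose by 0.78 (limma adjusted p = 0.00282), and the kinase gene Pdpk1 by 0.45 (limma adjusted p = 0.00116). The receptor gene Tek, also an endothelial marker, rose by 0.72 (limma adjusted p = 0.0172). Without WT replicate 3 this list had 4 higher and 0 lower of 9, where 31.7% of all genes passed.

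Among the Krüppel-like factors beside Klf14, 5 of 14 rose and 2 fell, 7 of 14 in all against 41.7% of all genes. Klf15, a regulator of adipocyte metabolism, averaged 2417 ± 583.4 in KO and 738 ± 179.1 in WT (SD, n = 4 each), at a log2 fold change of 1.71 (limma adjusted p = 0.00114). Klf4 rose by 0.92 (limma adjusted p = 0.00182) and Klf7 by 0.41 (limma adjusted p = 0.0109). Klf8 was at -0.64 (limma adjusted p = 0.0224), a call lost without WT replicate 1 (0.0534) or WT replicate 3 (0.0593). Without WT replicate 3 the family had 3 higher and 0 lower of 14, where 31.7% of all genes passed.

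Of 19 Arf-like GTPases and CNNM transporters beside Arl15, 4 rose and 5 fell (47.4%, against 41.7% of all genes). Arl11 averaged 169.1 ± 58.4 in KO and 998.2 ± 315.5 in WT (SD, n = 4 each), at -2.57 (limma adjusted p = 0.000598), and Arl4c was at -1.48 (limma adjusted p = 0.00226). Arl4a rose by 1.21 (limma adjusted p = 0.00207) and Arl3, a ciliary trafficking GTPase, by 0.42 (limma adjusted p = 0.00222). Among 16 proline peptidases and proline enzymes beside Pepd, 3 rose and 3 fell (37.5%, against 41.7% of all genes). Prodh, the proline oxidase of mitochondria, rose by 1.71 (limma adjusted p = 0.000756) and Xpnpep3 by 0.60 (limma adjusted p = 0.00238). Prcp, a lysosomal carboxypeptidase that cleaves after proline, was at -1.06 (limma adjusted p = 0.00121). Aldh18a1, which makes the precursor of proline, was at -0.81 (limma adjusted p = 0.0162). Without WT replicate 3 the list beside Arl15 had 4 higher and 5 lower of 19. The list beside Pepd then had 3 higher and 2 lower of 16, where 31.7% of all genes passed.

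In the Rspo3 list, 4 of 8 genes were tested (Rspo1, Lgr4, Znrf3 and Rnf43, named after their values were seen). In limma 0 passed, against 41.7% of all genes. Of the 4, 2 had an unadjusted limma p under 0.05, a looser threshold whose share over all genes was not counted. In edgeR 0 passed, against 41.9% of all genes, and in DESeq2 1 passed, against 47.2%. With 4 genes tested these counts are a description only. Rspo1, the related ligand, averaged 744.2 ± 414.3 in KO and 386.4 ± 142.8 in WT (SD, n = 4 each; limma adjusted p = 0.113). Rnf43, a ligase removed by R-spondins, averaged 54.6 ± 63.2 in KO and 164 ± 45.8 in WT (limma adjusted p = 0.0556). Of 8 thioesterases beside Lyplal1, 2 rose and 3 fell (62.5%, against 41.7% of all genes). Lypla1 rose by 0.36 (limma adjusted p = 0.00527) and Abhd17a by 0.29 (0.0212), while Ppt2 was at -0.43 (0.00418), Abhd17c at -0.64 (0.00623) and Lypla2 at -0.36 (0.0243). Without WT replicate 3 this list had 1 higher and 2 lower of 8, where 31.7% of all genes passed, and Abhd17a (limma adjusted p = 0.0566) and Lypla2 (0.0617) did not pass. Abhd17a also missed without KO replicate 3 (0.05), and Lypla2 without KO replicate 1 (0.0644), KO replicate 2 (0.0584) or WT replicate 1 (0.0594).

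Among 9 tested T-box genes beside Tbx15, 2 fell (22.2%, against 41.7% of all genes), Eomes (-1.63, limma adjusted p = 0.0285) and Tbx21 (-1.21, limma adjusted p = 0.0233), both known from T and NK lymphocytes. Neither passed without WT replicate 3 (limma adjusted p = 0.0534 for Eomes and 0.0645 for Tbx21) or WT replicate 4 (0.0665 and 0.0557). Eomes also missed without KO replicate 2 (0.0573), KO replicate 4 (0.0719) or WT replicate 1 (0.0584), and Tbx21 without KO replicate 1 (0.0523). Fam13b, the paralog of Fam13a, was at -0.41 (limma adjusted p = 0.0123), opposite to Fam13a, and Fam13c at -0.07 did not pass (limma adjusted p = 0.781). Among binding partners of Cmip, Flna, an actin crosslinker, was at -0.89 (limma adjusted p = 0.00538), the Src-family kinase Fyn at -0.48 (limma adjusted p = 0.00553) and Pik3r1, a regulatory subunit of PI3-kinase, at 0.72 (limma adjusted p = 0.0101).

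Genes most like each called gene were sought by Pearson's r of log2 values over the 8 libraries after removing each group's mean, among 13048 protein-coding genes with a mean of at least 50. The 2 highest were Clpb (0.989) and Trap1 (0.987), both mitochondrial chaperone genes, for Fam13a. For Grb14 they were Cdkl2 (0.986) and Igfals (0.985), for Pepd Zyx (0.982) and Trim46 (0.982), and for Cmip Dact1 (0.984) and Fam20c (0.977). These are the best of many candidates over 8 libraries that share composition and scaling, and are given as a description. Clpb averaged 1917 ± 344.7 in KO and 1193 ± 85.9 in WT, and Trap1 5386 ± 849.6 in KO and 2827 ± 205.6 in WT (SD, n = 4 each), both higher in KO (limma adjusted p = 0.00483 and 0.000935). Cdkl2 was higher in KO (0.90, limma adjusted p = 0.00085), opposite to Grb14, and Zyx was lower (-0.40, limma adjusted p = 0.0186), as Pepd was. Igfals, Trim46, Dact1 and Fam20c did not pass (limma adjusted p = 0.57, 0.0606, 0.257 and 0.0733).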

How the data were processed

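The authors deposited 1 signal value per gene and library, a count divided by a library factor, in 8 columns that each carry a sample's name. Per the submitters' processing notes, STAR 2.7.7, DESeq2 and GRCm38.p6 were used, with no role given; of the counter, its strand setting, the annotation and any filter, nothing is stated in the labels. All values were whole multiples of 1 step per library (100.0% within 0.01 of a read), which gave whole reads; the implied factors equalled recomputed median-of-ratios factors to the digits written. The lowest sum of reads per gene was 10. Gene identifiers were matched to GENCODE M21 (GRCm38), 24802 of 24821, and coordinates and exon lengths come from it.

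limma 3.58.1 (R 4.3.3) was run on log2(normalized count + 1) with group as the only term, trend and robust on, on genes with at least 10 in at least 4 libraries, with Benjamini-Hochberg adjustment over all 17798; a gene passed under 0.05. All fold changes divide KO by WT on that scale, which understates changes of low genes. edgeR 4.0.16 and DESeq2 1.42.0 on the recovered reads were alternatives, with TMM and quantile scaling, other pseudocounts and filters, library weights, a replicate block, scaling to adipocyte markers and libraries left out. Poisson intervals cover counting error only. The members and all lists were chosen with earlier results of these data known. Genes are named by a rule: the 9 genes, their nearest protein-coding neighbours, the called genes of each list (all up to 5, else the 4 with the smallest p) and the 2 genes most like each called member; others are marked where they appear. The list of Cmip's family and partners is given in part, since 1 item is not reported here.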

Additional observations from a re-analysis of the deposited data

How the results depend on the processing

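Fam13a kept its direction and passed in all 21 alternatives, with log2 fold changes of 1.55 to 3.80. The count of the 9 genes that passed, 4, was 2 with replicate number as a block and 1 without WT replicate 4 and KO replicate 3 together. It was 7 after scaling to the adipocyte marker mean, and 2 to 5 with 1 library left out (2 without KO replicate 4, WT replicate 3 or WT replicate 4). Over all 17798 genes, 6266 passed with the block and 5943 without those 2 libraries. After the scaling 16389 passed, and 5641 to 7079 with 1 library left out. With 1 library left out the log2 fold change was -0.11 to 0.04 for Arl15, -0.48 to -0.30 for Pepd, 0.92 to 1.88 for Klf14, -1.62 to -1.12 for Grb14 and 0.32 to 0.66 for Lyplal1; Arl15 turned to 0.02, 0.04 and 0.03 without KO replicate 4, WT replicate 2 and WT replicate 3, and to 0.07 under quantile normalization. Without WT replicate 4 and KO replicate 3 together Pepd (-0.38), Grb14 (-1.05) and Cmip (-0.36) did not pass, and 3 neighbours did. Klf14 passed under quantile normalization (1.64), in DESeq2 (1.27) and with library weights (1.44). These weights were largest for WT replicate 3, the library with liver transcripts, at 4.49, against 0.435 to 2.36 in the other libraries. Of 15 neighbours tested, 8 passed under quantile normalization, where 7850 of 17798 genes passed. With library weights 8 of 15 passed, where 9767 of 17798 genes did. Quantile normalization shifted the median over all genes by 0.104 (log2) and turned the split of all calls from 3592 higher and 3831 lower to 4593 and 3257, that of the 9 genes to 2 and 3, and that of the neighbours to 6 and 2. Scaling to the adipocyte marker mean, which lowers every gene's difference by 1.71, gave 16389 calls over all genes, 39 in the wider list, 86 among partners and 15 among neighbours; Arl15 (-1.73) and Rspo3 (-2.14) then passed, and Klf14 (-0.22) and Lyplal1 (-1.21) changed sign. The cause of the other changes was not tested.

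Same-numbered KO and WT libraries deviated from their group means with correlations of -0.143, 0.0511, -0.0405 and 0.172 across genes, so the numbers are not taken to pair the samples. With the replicate block 6266 genes passed, and Pepd (-0.37, limma adjusted p = 0.0734) and Grb14 (-1.36, limma adjusted p = 0.054) did not. With a minimum of 50 Rspo3 was not tested. Of the 41 named list genes, neighbours and like genes that passed, 31 passed in all 20 alternatives other than the adipocyte scaling. Depth limits Tbx15, at 1 to 4 reads per library, and Rspo3.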

Other observations

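WT replicate 3 held transcripts of liver. Albumin (Alb) stood at 35472.2 normalized counts there, at 407.5 to 843.4 in KO libraries and at 31.2 to 61.5 in the other WT libraries. Serpina1a was 6067.4 in that library, 131 to 329.9 in KO and 54.1 to 124.5 in the other WT libraries, and Apoa1, Ttr, Fgb and Tat stood highest there as well. In none of the 9 genes was WT replicate 3 the highest or lowest WT library, except Cmip, where it was the lowest, and Tbx15, where it shared 4 reads with WT replicate 4. With that library left out Fam13a and Cmip still passed. How liver RNA came to be in this library was not tested.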
